A study of Mus musculus with 2 samples.

Results

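Of the genes for chains of the fibrillar collagens of types I, III and V, 5 were examined for bound RNA polymerase II (Pol II), which makes messenger RNA: Col1a1, Col1a2, Col3a1, Col5a1 and Col5a2. Fibroblasts derived from mouse embryos, the matrix-producing cells of connective tissue, had been fixed, and DNA attached to Pol II was precipitated and sequenced (ChIP-seq). The monoclonal antibody, 8WG16, recognises the heptad repeats at the end of the Rpb1 subunit and is known to favour their unphosphorylated form. The 2 libraries form a single group, grown in DMEM with 10% serum, and the labels give no genotype, strain, embryonic age, treatment or separate culture. They are called library 1 (gel slice of 150 to 350 bp) and library 2 (150 to 300 bp), and differences between them may be technical. No input library was analysed here, and a library's own genome-wide background served as the reference for its enrichment.

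The genes were found by position on mm8. Reads were counted in windows of 500 bp, windows enriched in both libraries were joined over gaps of at most 1 window, and the stretch with the most reads in the interval chosen for each gene was taken. This gave 1 stretch each for Col1a1, Col1a2, Col3a1 and Col5a1, and 8 neighbouring stretches for Col5a2, 12 in all of 42358 in the genome. The members were thus chosen by their enrichment and width, and those values are given as descriptions. Gene names rest on the chosen intervals, since an mm8 annotation was not used here. The strand of Col3a1 and Col5a2 was part of the choice, RefSeq gives that of Col1a2, Col3a1 and Col5a1, and that of Col1a1 (plus) is background knowledge.

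Fibrillar collagens are triple helices of pro-alpha chains that are trimmed outside the cell and assemble into fibrils, and fibroblasts are their main producers. Type I, the bulk collagen of skin, tendon and bone, combines pro-alpha1(I) chains from Col1a1 with fewer pro-alpha2(I) chains from Col1a2. Type III, made of the Col3a1 chain alone, is laid down with type I in skin and vessels. Type V, from Col5a1 and Col5a2 (a further type V gene, Col5a3, was not among the genes analysed here), is a minor collagen that starts fibrils and limits their diameter. A Pol II peak at the start of a gene marks initiation and promoter-proximal pausing, the level along the body reflects elongating polymerase, and a rise past the poly(A) site is commonly seen before termination.

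RefSeq promoter sequences (build GRCm38.p6, whose coordinates differ from the mm8 coordinates of the reads) were matched for 3 of the 5 genes. They are shown as sequence only, and whether they relate to the peaks described below as starts was not tested. Each runs 5′ to 3′ and stops before the first base of the gene's listing. Capitals mark any match, on either strand, to 3 motifs: the TATA box, searched as TATAAA; the CCAAT box, searched as CCAAT; and the GC box, searched as GGGCGG. No match overlaps another.
Col1a2, chr6:4505368-4505617, plus strand: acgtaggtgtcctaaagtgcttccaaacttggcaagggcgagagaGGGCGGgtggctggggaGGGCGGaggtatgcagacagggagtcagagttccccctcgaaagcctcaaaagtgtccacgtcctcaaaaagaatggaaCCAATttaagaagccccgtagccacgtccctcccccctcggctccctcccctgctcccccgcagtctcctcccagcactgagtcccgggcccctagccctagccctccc
Col3a1, chr1:45311288-45311537, plus strand: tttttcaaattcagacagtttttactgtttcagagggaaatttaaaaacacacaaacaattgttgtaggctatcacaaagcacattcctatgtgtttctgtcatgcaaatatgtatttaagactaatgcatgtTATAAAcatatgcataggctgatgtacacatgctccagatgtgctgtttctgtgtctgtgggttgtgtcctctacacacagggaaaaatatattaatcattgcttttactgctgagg
Col5a1, chr2:27886175-27886380, plus strand: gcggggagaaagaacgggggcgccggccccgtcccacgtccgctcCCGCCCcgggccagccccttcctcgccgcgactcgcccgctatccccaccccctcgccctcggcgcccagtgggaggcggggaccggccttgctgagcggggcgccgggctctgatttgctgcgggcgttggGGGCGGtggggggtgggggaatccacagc

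The Col1a2 stretch of 250 bases held 1 match to CCAAT, 109 bases before its end, and 2 matches to GGGCGG. Of its bases 62.0% were G or C. That of Col3a1 held a match to TATAAA 117 bases before its end and to neither other motif. It had 35.2% G or C and no CpG, and 5.0% of the 32851 promoter sequences in the table had a lower G and C content. The 206 bases of Col5a1 held 2 matches to GGGCGG, 1 on each strand. They had 77.7% G or C and 25 CpG, and 97.7% of promoters had a lower G and C content over the same length. Over 250 bases, 12.4% of all promoters in the table hold the TATA box as searched, 33.8% the CCAAT box and 32.7% the GC box. Over 206 bases the shares are 9.38%, 29.3% and 25.8%. These shares and the G and C comparisons use the first 206 or 250 bases of every promoter sequence. Such a window matches in length but need not stop at the first listed base of its gene. These matches describe the letters only.

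Library 1 held 17548967 and library 2 10941174 reads placed at 1 site on the nuclear chromosomes after repeated starts were collapsed, and levels are in reads per 1000000 of these (RPM) per kb. Background was 0.389 RPM per kb in library 1 and 0.236 in library 2. A window was called enriched from 12 reads in library 1 and from 7 in library 2. Called windows made up 3.41% of the 4308660 tested in library 1, 9.02% in library 2 and 2.90% in both. Intervals given here are 95% exact intervals and cover counting error only.

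Pol II was dense over both type I genes, and densest over Col1a1. Its stretch ran on chromosome 11 from 94748501 to 94772500, 24 kb in which all 48 windows were called in both libraries. It held 14.8 RPM per kb in library 1 (14.5 to 15.2) and 28.2 in library 2 (27.6 to 28.9), 21.5 ± 9.47 on average (SD, n = 2). Relative to background this is 38.1-fold and 120-fold. Col1a2 followed on chromosome 6 from 4454501 to 4494500. All 80 windows of its 40 kb were called in both libraries, at 6.40 RPM per kb in library 1 (6.21 to 6.59) and 14.2 in library 2 (13.8 to 14.6), 10.3 ± 5.52 on average. As a description of the threshold, the last window called at the left edge of Col1a1 held 14 and 12 reads, and the next one out held 6 and 5.

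Col3a1 was lower than both type I genes in each library. Its stretch of 46 kb on chromosome 1, from 45255501 to 45301500, had 4.43 RPM per kb in library 1 (4.29 to 4.58) and 8.30 in library 2 (8.05 to 8.55), 6.36 ± 2.73 on average. Of its 92 windows 90 were called in both libraries, and without joining over single windows the stretch that holds its start was 17.0 kb.

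The type V genes had the longest spans and the lowest levels of the 5. Col5a1, on chromosome 2 from 27706501 to 27864500, covered 158 kb at 3.15 RPM per kb in library 1 (3.09 to 3.22) and 7.80 in library 2 (7.67 to 7.93), 5.48 ± 3.28 on average, with 314 of 316 windows called in both. Col5a2, on chromosome 1 from 45303501 to 45449000, spanned 145.5 kb at 2.87 RPM per kb in library 1 (2.80 to 2.93) and 7.43 in library 2 (7.30 to 7.57), 5.15 ± 3.23 on average. Of its 291 windows 260 were called in both libraries, 260 in library 1 and 283 in library 2. Those not called in both lay mostly in 7 gaps of 1 to 3 kb that part its 8 stretches. Over the windows called in both, Col5a2 had 3.13 and 7.99 RPM per kb against 3.17 and 7.81 for Col5a1, so their order turned over in library 2.

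The order Col1a1, Col1a2, Col3a1, Col5a1, Col5a2 was thus the same in both libraries over whole spans, and each step was larger than the counting intervals. The spread between the libraries exceeded 3 of these 4 steps, because every gene had more RPM in library 2. Ranks were taken with every stretch as called, so that Col5a2 is represented by the stretch of 25.5 kb that holds its start. Among the 734 regions of at least 10 kb the median level was 3.78 RPM per kb, and the middle 50% lay between 2.97 and 5.12. Col1a1 ranked 10 by level, Col1a2 27, Col3a1 100, Col5a1 155 and the start stretch of Col5a2, at 7.04 RPM per kb, 81. By width Col5a1 was the first of all regions, Col3a1 ranked 23, Col1a2 37, the start stretch of Col5a2 100 and Col1a1 110. These width ranks rest on the joining. With every region of the genome joined over gaps of up to 5 kb, Col3a1 and Col5a2 fell into 1 region of 194 kb that ranked 8, the Col5a1 region of 172 kb ranked 14, and the widest region had 588 kb. By total reads, which grow with length, Col5a1 led the members with 865 ± 519 RPM, followed by Col5a2 with 749 ± 470, Col1a1 with 517 ± 227, Col1a2 with 412 ± 221 and Col3a1 with 293 ± 126. For scale, the region with the most reads of the genome, 22 kb of chromosome 2 from 117800501, held 79.3 ± 41.9 RPM per kb. Together the 5 genes took 0.173% of all collapsed reads in library 1 and 0.394% in library 2.

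**Figure D1:**
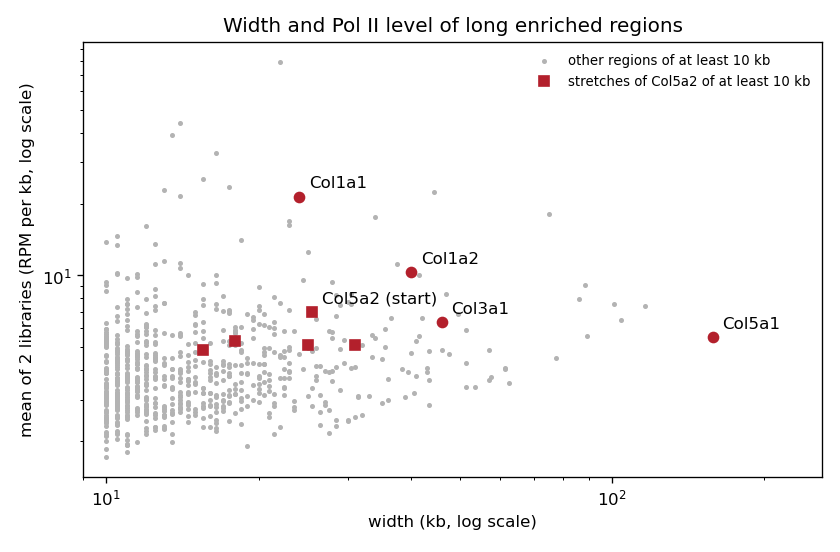
Each point is an enriched region of at least 10 kb, with its width in kb and the mean of the 2 libraries in RPM per kb, both on log axes; the 5 collagen genes are in red. Col5a1 lies at the far right, Col1a1 lies high at a width of 24 kb, and the 5 stretches of Col5a2 shown (squares) lie between 15.5 and 31 kb.

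Along the genes, Pol II formed a peak at the start and a plateau. In library 2 the 1 kb counted as the start of Col1a1, which began before its step in reads, was not above its body beyond counting error. A rise near the far end was clear in Col1a2, Col3a1 and Col5a1 and slight in Col1a1. To measure the start, the highest window in the first 6 kb was picked in one library and the 1 kb around it counted in the other, and the body was counted from 2 kb past that summit to the far end of the stretch. Col5a2 had the highest start relative to its body and Col1a1 the lowest, in both libraries. The other 3 genes lay between, in an order that differed between the libraries.

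**Figure D2:**
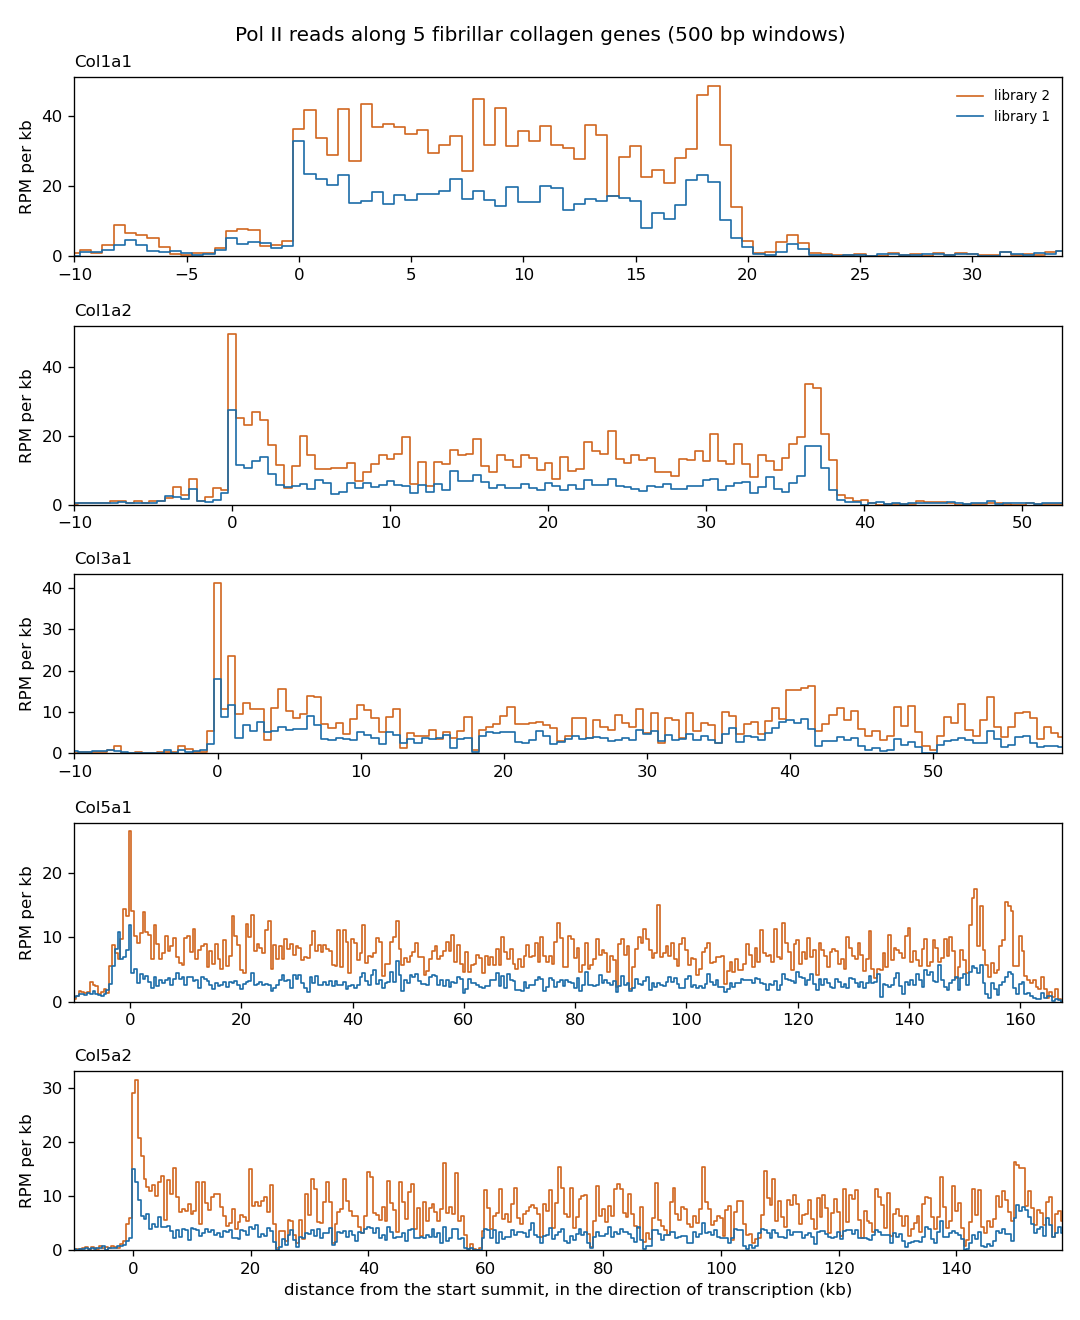
Each panel shows 1 gene, with RPM per kb in 500 bp windows on the vertical axis and the distance in kb from the start summit of library 1, in the direction of transcription, on the horizontal axis. A start peak stands over a plateau in Col1a2, Col3a1, Col5a1 and Col5a2. In Col1a1 the window from 94752001 stands at 32.8 RPM per kb in library 1, against a body level of 15.7. In library 2 that window stands at 36.2 against 31.6. The rise at 150 kb in the Col5a2 panel lies in the stretch counted as Col3a1.

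In Col1a1 the reads stepped up at 94752001. The window from there held 288 (library 1) and 198 reads (library 2), while the window before it held 24 and 23. Past the step the level stayed high to the far end. The start zone held 22.3 RPM per kb in library 1 and 32.5 in library 2 against 15.7 and 31.6 in the body, a start-to-body ratio of 1.42 (1.28 to 1.57) and 1.03 (0.922 to 1.15), 1.22 ± 0.28 on average (SD, n = 2). In library 2 the start zone was therefore not above the body beyond counting error. That zone was centred on the window from 94752001 and so began before the step. In library 2 the 2 windows from the step held 36.2 and 41.7 RPM per kb, above the body level of 31.6. The libraries picked different summits here, 94752001 in library 1 and 94754001 in library 2. With all reads kept, which lifts the cap that collapsing sets on dense windows, the ratio was 1.79. With collapsed reads left in place rather than moved 60 bp downstream it was 1.54, and moved by 100 bp it was 1.58. The cause of these moves was not tested. Distinct starts occupied 13.0% of the positions and strands of the Col1a1 stretch in library 1 and 15.4% in library 2, against at most 7.77% in the other genes.

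In Col1a2 both libraries placed the summit in the window from 4455501, with 240 reads in library 1 and 270 in library 2. The start zone held 18.3 and 33.5 RPM per kb against 5.96 and 13.5 in the body. The ratio was 3.07 (2.73 to 3.44) in library 1 and 2.48 (2.22 to 2.76) in library 2, 2.77 ± 0.42 on average. The level stayed raised for about 3 kb past the summit before it reached the plateau.

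In Col3a1 the summit was narrow. The window from 45256001 held 158 reads in library 1 and 226 in library 2, and both libraries picked it. Its start zone had 11.7 and 24.9 RPM per kb against 4.18 and 7.73 in the body, a ratio of 2.80 (2.42 to 3.22) and 3.21 (2.83 to 3.64), 3.01 ± 0.29 on average. With the start zone narrowed to 500 bp the ratio rose to 4.83, above the other genes.

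Col5a1 had a start that was broad in library 1 and less so in library 2. In library 1, 7 windows in a row from 27707501 held between 49 and 104 reads. In library 2 the same windows held between 36 and 145. The summit, the window from 27710501, held 104 and 145 reads in the 2 libraries. From 1 to 3 kb upstream of that summit the level was still 8.23 RPM per kb in library 1 and 9.28 in library 2, against 0.399 and 0.823 at the same distance in Col3a1. Relative to its body, the Col5a1 level there was 272% in library 1 and 121% in library 2. The start zone held 8.09 and 20.2 RPM per kb against 3.03 and 7.69 in the body, a ratio of 2.67 (2.25 to 3.15) and 2.63 (2.29 to 3.0), 2.65 ± 0.03 on average. With the summit sought in the first 4 kb only, it was 1.75, a move of over 1.5 times. That search stopped short of the window from 27710501. In library 1 the window from 27708501, 2 kb nearer the left edge, held 95 reads, close to the summit, and in library 2 it held 36.

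Col5a2 is read toward lower coordinates, and its summit lay at the right edge, in the window from 45447501 in library 1 (132 reads) and in that from 45447001 in library 2 (173 reads). The start zone had 15.4 and 27.1 RPM per kb against 2.75 and 7.19 in the body. This gave the highest ratios of the 5, 5.60 (4.94 to 6.33) in library 1 and 3.76 (3.34 to 4.22) in library 2, 4.68 ± 1.30 on average. With the summit picked and measured in the same library, the ratio was 4.29 in library 1 and 4.57 in library 2. Which library had the higher ratio thus depended on where the zone was placed. In library 2 the window from 45447501 still held 159 reads. The next window outward, from 45448001, held 19 reads in library 1 and 33 in library 2.

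A measure that needs no direction was used to set these genes among the long regions: the 1 kb around the highest window of the whole stretch, picked in the other library, over the mean of the stretch. Its median over the 734 regions as called was 1.65, and the middle 50% lay between 1.25 and 2.25. The start stretch of Col5a2 had 3.24 and ranked 22. Over the whole Col5a2 span, which no other region matches in its joining, the value was 4.51. Col3a1 had 2.82 and ranked 66, Col1a2 2.61 (rank 112) and Col5a1 2.58 (rank 117). Col1a1 had 1.22 and ranked 560, below the lower quartile. With all regions joined over gaps of up to 5 kb, the 3085 of at least 10 kb had a median of 2.20, and the region of Col3a1 and Col5a2 had 3.45 and ranked 624. Ranks are descriptions, since stretches were chosen by their reads.

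Upstream of the starts the genes differed. Col3a1 was at background in library 1, with 14 reads from 1 to 3 kb upstream (1.03-fold), and had 18 reads in library 2 (3.48-fold). Col5a2 had 30 and 25 reads there, 2.20-fold and 4.84-fold over background. Col5a1 had the most, 289 and 203 reads, 21.2-fold and 39.3-fold over background, within its broad start. Col1a1 had a separate shoulder, with 131 and 119 reads from 1 to 3 kb upstream, 9.60-fold and 23.0-fold over background. A further stretch of 2.5 kb from 94743501 to 94746000 had 2.78 and 6.0 RPM per kb. Col1a2 had 67 and 73 reads from 1 to 3 kb upstream, 4.91-fold and 14.1-fold over background, and a stretch of 2 kb from 4451501 with 2.65 and 4.25 RPM per kb. ChIP reads do not show the strand of transcription, so the direction of this Pol II is not known.

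The level along the bodies was described in 4 equal parts, the last of which also holds the far end. From the start, Col5a1 held 3.0, 3.07, 2.82 and 3.22 RPM per kb in library 1 and 8.42, 7.34, 7.17 and 7.82 in library 2. The first part over the last was 1.0 ± 0.10 on average (SD, n = 2), over a body of about 152 kb. Col5a2 went from 3.10 to 2.62 in library 1 and from 7.93 to 6.98 in library 2, a ratio of 1.16 ± 0.03. Col1a1 went from 17.9 to 13.7 and from 34.8 to 27.3, a ratio of 1.29 ± 0.02. Its last part includes the drop beyond the far-end rise, and with the last 10 kb of the body left out the ratio was 1.01.

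Col3a1 was lowest in its second part, with 3.47 and 5.89 RPM per kb against 5.04 and 9.41 in the first and 4.44 and 8.93 in the last. With the last 10 kb left out its ratio of the first to the last part was 1.46. Col1a2 had 5.91 and 12.7 in the first part, 6.95 and 15.9 in the last and a ratio of 0.83 ± 0.03. Its last part includes the far-end rise, and with the last 10 kb left out the ratio was 0.995. Over the whole body, the intervals of the ratio excluded 1 in both libraries for Col1a1, Col5a2 and Col1a2, and in only 1 library for Col3a1. For Col5a1 they excluded 1 on opposite sides, 0.931 (0.876 to 0.990) in library 1 and 1.08 (1.03 to 1.13) in library 2.

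Single windows of the bodies varied by more than counting error. In the inner body, which leaves out the last 10 kb, the variance of the counts was 1.76 times their mean in Col5a1 in library 1 and 3.15 times in library 2. In Col5a2 it was 3.67 and 8.56 times. The lowest of the inner windows of Col5a2 held no read in either library, while the lowest of Col5a1 had 0.684 and 2.01 RPM per kb. The largest gap in Col5a2, from 45388501 to 45391500, had 0.152 RPM per kb in library 1 and 0.762 in library 2, and the gap from 45341501 to 45344000 had 0.638 and 2.74. Relative to background they stood at 0.391-fold and 1.64-fold in library 1, and at 3.23-fold and 11.6-fold in library 2. Whether the gaps are repeats that reads cannot be placed in was not tested. Over the windows of each gene the counts of the libraries correlated with a Pearson r of 0.91 in Col1a2 (80 windows), 0.88 in Col3a1 (92), 0.83 in Col1a1 (48), 0.79 in Col5a2 (291) and 0.48 in Col5a1 (316). Windows share mappability and are not replicates, so no p is given.

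The rise near the far end was highest over the body in Col1a2, Col3a1 and Col5a1. The highest 2 kb in the last 10 kb was picked in one library and measured in the other, against the inner body. Col1a2 had 13.2 RPM per kb there in library 1 and 27.3 in library 2 against 5.65 and 12.6 in the inner body. That is a ratio of 2.33 (2.11 to 2.57) and 2.16 (1.98 to 2.36), 2.25 ± 0.12 on average (SD, n = 2). Both libraries picked the same 2 kb, from 4491501 to 4493500, centred 36.75 kb past the start summit. Col3a1 had 7.35 and 13.6 RPM per kb against 4.04 and 7.23, a ratio of 1.82 (1.59 to 2.07) and 1.88 (1.66 to 2.12), with the zone centred 40.75 and 40.25 kb past its start. Col5a1 had 5.21 and 14.3 against 2.98 and 7.61, a ratio of 1.75 (1.50 to 2.03) and 1.87 (1.67 to 2.10), centred 152.25 kb past the summit in both libraries.

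The same search in inner blocks of 10 kb of these bodies gave lower values. The highest of 14 blocks in Col5a1 reached 1.52 in library 1 and 1.32 in library 2. The 3 blocks of Col3a1 reached 1.69 and 1.58, and the 2 of Col1a2 reached 1.42 and 1.26. In these 3 genes the far-end ratio thus exceeded that of every inner block in both libraries. In library 1, though, the highest block of Col3a1 (1.69) lay within the far-end interval of 1.59 to 2.07. That of Col5a1 (1.52) lay within 1.50 to 2.03. The search part and the end zone were set after the profiles were seen.

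Col1a1 also rose at its far end, after a dip, but to little above its plateau. The 3 windows from 94767501 had 7.98 to 12.2 RPM per kb in library 1 and 20.7 to 24.5 in library 2, while the window from 94770001 had 23.2 and 45.9. Against the inner body the ratio was 1.10 in library 1 (1.0 to 1.20) and 1.10 in library 2 (1.02 to 1.19). Col1a1 had no inner block of 10 kb to compare this with. For Col5a2 the ratio was 1.15 (0.942 to 1.38) and 1.11 (0.947 to 1.28), and 7 and 10 of its 13 inner blocks were as high. No rise beyond counting error was measured at the far end of Col5a2. Where the gene itself ends within these stretches was not determined here.

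**Figure D3:**
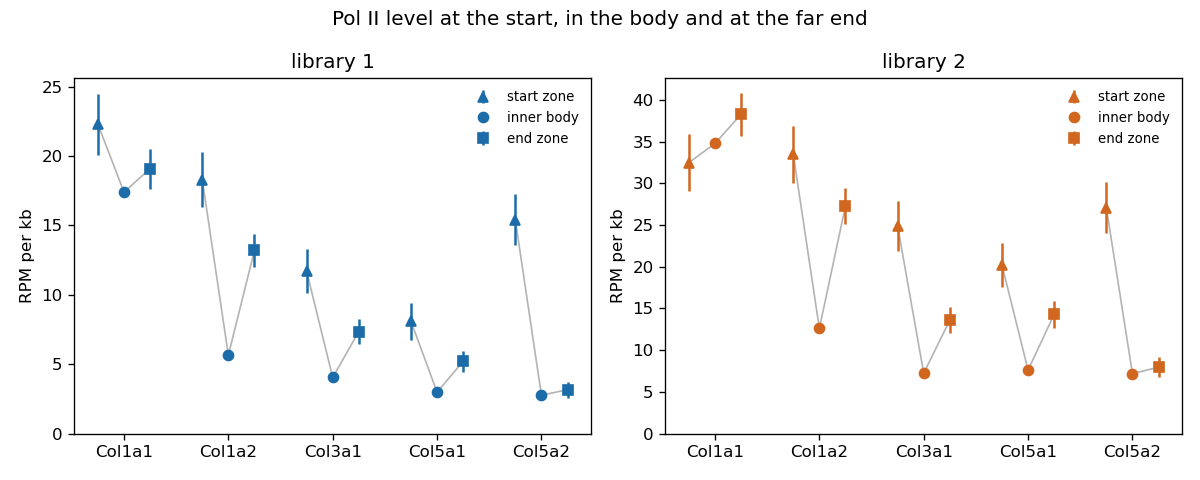
For each gene the plot gives RPM per kb in the 1 kb start zone (triangle), the inner body (circle) and the 2 kb end zone (square), in library 1 on the left and library 2 on the right. Error bars are 95% intervals for counting error (normal approximation), drawn for the zones only. The circle lies below both neighbours in Col1a2, Col3a1 and Col5a1 in each library, and the square of Col5a2 lies near its circle.

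Beyond the far end, Pol II dropped at different rates. In the 5 kb past the stretch, Col1a2 had 0.444 RPM per kb in library 1 and 0.640 in library 2, 7.46% and 4.74% of its body. Col1a1 had 0.866 and 1.81, 5.51% and 5.72% of its body. Past Col5a1 the level was 2.61 and 8.74 RPM per kb, 86.1% and 114% of the body, in a further stretch from 27865501 to 27872500, and from 5 to 10 kb past it was 45.9% and 60.9%. Whether that Pol II belongs to Col5a1 or to a neighbouring gene was not tested.

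Col3a1 and Col5a2 are transcribed toward each other, and only a narrow trough lay between their stretches. Their start summits were 191.5 kb apart in library 1. The stretches were parted by 2 kb, from 45301501 to 45303500, with 0.798 RPM per kb in library 1 and 4.20 in library 2. Relative to background the trough stood at 2.05-fold in library 1 and at 17.8-fold in library 2. In the 5 kb past the Col3a1 stretch the level was 30.6% of the Col3a1 body in library 1 and 69.2% in library 2. From 5 to 10 kb past it was 71.0% and 94.5%, within the stretches counted as Col5a2. In library 2 alone the stretch from the Col3a1 start ran on for 133 kb, and joining gaps of up to 4 windows in both libraries made it 86 kb. Pol II that has passed the end of Col3a1 and Pol II that has passed the end of Col5a2 cannot be told apart in the trough, so the line between the genes is a convention.

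**Figure D4:**
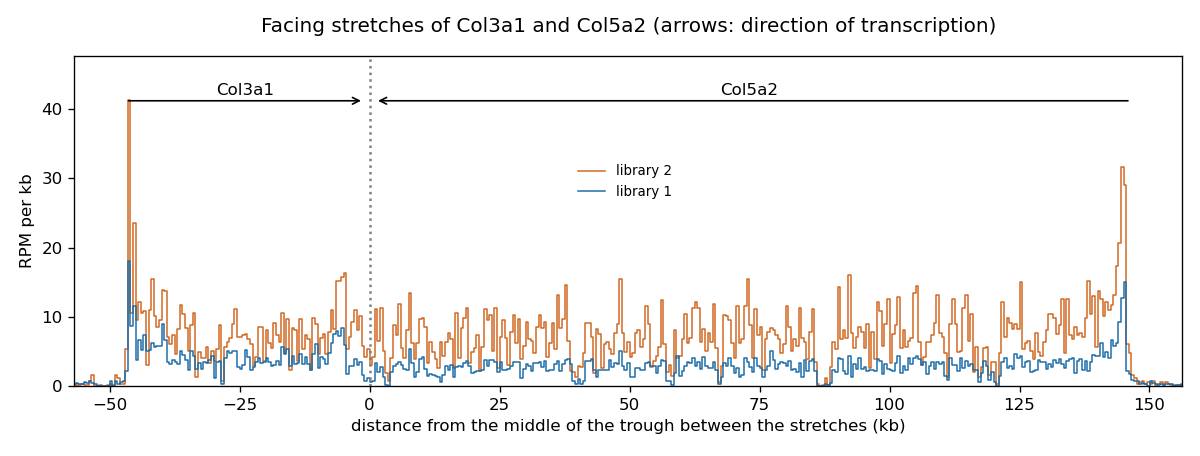
RPM per kb in 500 bp windows is plotted against the distance in kb from the middle of the 2 kb trough between the stretches of Col3a1 and Col5a2 (dotted line); arrows give the direction of transcription. The start peaks stand at the outer ends, the rise at the far end of Col3a1 lies 5.75 kb left of the middle of the trough, and over the 2 kb of the trough the level is above background in both libraries.

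Chains that share a collagen type were compared by their body levels, per kb of body. Col1a1 had 2.64 times the body level of Col1a2 in library 1 (2.53 to 2.76) and 2.34 times in library 2 (2.26 to 2.43), 2.49 ± 0.21 on average (SD, n = 2). Col5a1 had 1.10 times (1.07 to 1.14) and 1.07 times (1.04 to 1.10) the body level of Col5a2, 1.09 ± 0.02 on average. The type V pair thus differed far less than the type I pair. These 2 pairs share no gene, and their ratios lay apart in both libraries. Across types, Col1a1 stood 3.93 ± 0.23 times over Col3a1, 4.65 ± 0.76 times over Col5a1 and 5.06 ± 0.94 times over Col5a2. Col3a1 exceeded Col5a1 in library 1 (ratio 1.38, 1.32 to 1.44) but not beyond counting error in library 2 (1.01, 0.970 to 1.04). A Pol II level in the body is not an amount of RNA, and it depends on the speed of the polymerase as well as on how often it starts.

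The members also differed in how far the libraries disagreed. With each library scaled by its reads in the windows called in both, all 5 were higher in library 2 (exact binomial test, two-sided, p-values adjusted by Benjamini-Hochberg over 42351 regions). In that test 4.03% of the regions were higher in library 2 and 6.42% higher in library 1. These shares are not for regions of like depth. The median width of the regions was 0.5 kb, while the members held from 3576 to 13481 reads per library. A deep region is called at a smaller difference. By the exact test the ratio was 1.16 in Col1a1 (1.12 to 1.20, adjusted p = 1.6e-15), 1.14 in Col3a1 (1.09 to 1.19, adjusted p = 5.4e-07) and 1.35 in Col1a2 (1.30 to 1.41, adjusted p = 3.1e-51). By the same exact test it was larger in the type V genes, 1.51 in Col5a1 (1.47 to 1.55, adjusted p = 3.1e-196) and 1.58 in Col5a2 (1.53 to 1.63, adjusted p = 1.3e-209). The test compares these 2 libraries and covers counting error only. A trimmed-mean scaling turned Col1a1 (0.934) and Col3a1 (0.920) toward library 1 and kept Col1a2 (1.09), Col5a1 (1.21) and Col5a2 (1.27) toward library 2. Under it 1.37% of the regions were higher in library 2 and 17.4% higher in library 1. The gel slice, run and library cannot be told apart.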

How the data were processed

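Pol II ChIP-seq libraries of mouse embryonic fibroblasts were used, 2 samples of 1 group. The deposited files list read alignments as signed left-most offsets, with no count, scaling or peak. Per the file headers, the authors mapped them to mm8 using Bowtie (-k 2, -m 2, -n 2, so reads matching more than 2 sites are lost). No Bowtie version is given in the sources used. Whole cell extracts had been sonicated and the DNA amplified by 18 cycles of PCR, per the labels' protocols.

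Reads placed at 1 site were collapsed to 1 per start and strand, moved 60 bp downstream and counted in 500 bp windows. Each window with a read in either library was tested against the library's background, the mean of windows left after 3 rounds of removing calls, by a one-sided exact Poisson test at 0.01 after Benjamini-Hochberg adjustment. Intervals are exact Poisson or binomial. Library differences were tested by an exact binomial test at 0.05. For Col5a2, stretches beyond Col3a1 with at most 5 kb between them were taken. The 6 kb and 10 kb search parts and the 2 kb end zone were set after the profiles were seen. On simulated data with 200 enriched windows per fold among 4308660, the call recovered 91.5% of 5-fold windows in library 1 and 49.0% in library 2. Among 42358 regions, the library test recovered 77.5% of 1.5-fold differences in the deepest 10%. Software was SciPy 1.17.1, NumPy 2.4.6 and matplotlib 3.10.9 under Python 3.11.15.

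All 5 members are named. The members and lists were chosen with earlier results of these data known. Lists of collagen-processing genes and of markers of other cell types needed an annotation of mm8 and were not evaluated. Reads placed at 2 sites entered no level.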

Additional observations from a re-analysis of the deposited data

Results flagged for a closer look

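Reads placed at 2 sites, which enter no level given above, were more frequent per kb in both type V genes than over the genome in each library. Col5a1 held 83 such alignments in library 1 (0.525 per kb) and 167 in library 2 (1.06 per kb), and Col5a2 held 168 (1.15 per kb) and 282 (1.94 per kb). Over the nuclear genome there were 0.381 per kb in library 1 and 0.199 in library 2. Col1a1 (0.458) and Col3a1 (0.370) exceeded this in library 2 only. Per 100 reads placed at 1 site the type V genes held fewer than the genome, 0.949 and 1.24 in Col5a1 and 2.30 and 2.38 in Col5a2 against 5.71 and 4.79. Alignments sharing a start were counted once, and one read may appear at each of its sites.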

How the results depend on the processing

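Levels of all 5 stretches stayed within the spread of the libraries under the 20 settings tried on them. This is a weak check, since that spread was wide, 9.47 on 21.5 RPM per kb at Col1a1 and 3.23 on 5.15 at Col5a2. Changing the shift of the reads hardly alters the level of such long stretches by construction. Of 50 other settings for the start-to-body ratio, 35 stayed within it. Col1a1 was lowest under every one, and Col5a2 highest under all but the 500 bp start zone, where Col3a1 led. With all reads kept the ratio was 1.79 in Col1a1, 3.64 in Col1a2, 3.40 in Col3a1 and 2.78 in Col5a1. With a start zone of 500 bp it was 4.12 in Col1a2, 4.83 in Col3a1 and 3.68 in Col5a1. Without the shift Col1a1 had 1.54 and Col5a1 2.61, and with a shift of 100 bp they had 1.58 and 2.70. For Col5a1, whose libraries differed little, it was 2.80 with background subtracted, 2.71 over the median window, 2.69 with the body stopped 10 kb early and 1.75 with the summit sought in the first 4 kb. The search in the first 4 kb left out the summit window of Col5a1, from 27710501. The causes of the other moves were not tested.

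The end-to-body ratio with all reads kept was 1.12 in Col1a1, 2.49 in Col1a2 and 0.970 in Col5a2, and sought in the last 20 kb it was 1.79 in Col3a1. Col1a1 has no value there, since no body is left. The first part of the body over the last was 1.23 in Col1a1, 0.752 in Col1a2, 0.964 in Col3a1 and 1.12 in Col5a2 with the body from 4 kb, and with 3 parts in place of 4 it was 0.862 in Col1a2 and 1.02 in Col3a1, so Col3a1 has no fixed direction. With the last 10 kb left out it was 1.01 in Col1a1, 0.995 in Col1a2, 1.46 in Col3a1 and 1.20 in Col5a2. Joined over up to 4 windows, the widths were 26.5 kb at Col1a1, 172 kb at Col5a1 and 57.5 kb at the start of Col5a2 (25.5 kb as reported). At a threshold of 0.0001 Col1a1 had 23.5 kb, and with no gap joined Col5a1 had 139 kb. At 0.0001, 64581 windows were called in both libraries against 124740. Fewer windows pass by construction. The trimmed mean turned the library ratio of Col1a1 to 0.934 and of Col3a1 to 0.920.

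With 1 library left out, and the summit then picked and measured in the other, start-to-body was 1.16 to 1.53 in Col1a1 and end-to-body was 1.13 to 1.17 in Col1a1, 1.92 to 2.16 in Col3a1 and 1.20 to 1.23 in Col5a2. The first part over the last was 1.21 to 1.26 in Col1a1 and 1.13 to 1.20 in Col5a2. Widths were 40.0 to 44.5 kb at Col1a2, 46.0 to 133 kb at Col3a1, 158 to 176 kb at Col5a1 and 25.5 to 58.5 kb at Col5a2, each wider without library 1, and called windows numbered 147027 to 388676. The search in the first 4 kb, the median window, the early stop, the joining over 5 kb and the settings for the far end were chosen after seeing the data. No paired analysis was possible because the 2 libraries form 1 group. With 2 libraries and no input, the spread rests on 1 difference, and uneven mappability or chromatin shearing was not tested.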
